A study of Mus musculus with 12 samples.

Results

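Transcripts of 6 genes of intestinal calcium absorption and the vitamin D response (Trpv6, S100g, Atp2b1, Vdr, Cyp24a1 and Cyp27b1) were followed in murine small intestine (SI) and large intestine (LI), before and after culture as monolayers. The 6 genes, of 55487 in the count tables, were chosen from earlier results on the same measured levels across the same 4 groups. Their levels and changes are therefore a description, given with their spread and without a p-value.

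The study sequenced total RNA from C57BL/6 (C57BL/6NHsd) mice of 6 to 10 weeks of age and of either sex. SI tissue and LI tissue are labelled as in vivo tissue, while their titles and the study's methods name fresh crypts. SI monolayers and LI monolayers were grown from crypts for 24 h on a Matrigel coat, without any of the screened drugs. The control medium held Wnt3a, EGF, Noggin and R-spondin. Per the methods, the seeding medium used before it held small-molecule inhibitors in both regions. For the cultures the SI epithelium came from jejunum and was released with EDTA, while the LI epithelium was released with enzymes as well. Which segment the SI tissue libraries came from is not given in the sources used here, so segment and culture cannot be told apart in SI. Each of the 4 groups had 3 libraries, 12 in all, with total counts of 59016196 to 76216530 per library. The labels name no batch. According to the study's supplement the replicates were separate mice for tissue and pooled wells for monolayers, and the methods took LI for culture from the animals that gave SI, so a p-value here measures the spread between these libraries, which for monolayers need not be that between animals.

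LI tissue replicate 1 stood apart from the 2 other LI tissue libraries in smooth muscle and some enterocyte transcripts, looked up after the values were seen. Des was at 496 in it against 36.6 and 16.1 normalized counts (counts divided by a size factor per library), Myh11 at 676 against 47.6 and 19.6, and Lct at 271 against 23.8 and 3.57. Other enterocyte transcripts did not set it apart, such as Fabp2 (14495 against 19581 and 11320) and Slc5a1 (13734 against 13628 and 13825). Without it the log2 fold change of LI monolayers against LI tissue was -10.46 for Trpv6, -2.95 for S100g, 1.11 for Atp2b1 and -3.18 for Vdr, against -10.66, -2.90, 1.08 and -3.17 with it. LI tissue replicate 2, which had the highest S100g of its group (2360), stood apart in the colonocyte transcript Car1, at 215580 against 52741 and 48540. No other colonocyte marker used here was highest in it. Car4 (52095 against 66777 and 57276), Slc26a3 (34994 against 44459 and 42930) and Slc26a2 (34661 against 36254 and 39143) were lowest in it. The part of these libraries in other values was not tested beyond leaving each out.

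Calcium crosses the absorptive epithelium through cells or between them. In the transcellular route it enters through apical channels of the TRPV family, is carried across the cytosol by the calcium-binding protein calbindin-D9k, and leaves through a calcium pump of the basolateral membrane. The active hormone calcitriol, bound to the vitamin D receptor and its retinoid X partner, raises transcription of the channel, of calbindin-D9k and of the enzyme that degrades the hormone itself.

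Trpv6 encodes the apical calcium channel. Its normalized count was 4653, 2594 and 3682 in the LI tissue libraries. It was 23.5, 11.5 and 9.78 in SI tissue, and 1.92, 10.7 and 1.82 in SI monolayers. In LI monolayers it was 0, 2.30 and 3.95. All 3 LI tissue libraries were far above the 9 others, which lay close to 0, and SI tissue overlapped SI monolayers, as SI monolayers did LI monolayers.

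The mean level of Trpv6 was 3643 ± 1030 in LI tissue (SD, n = 3) and 14.9 ± 7.50 in SI tissue (SD, n = 3), a ratio of 244. LI monolayers held 6 counts of Trpv6 in all against 11910 in LI tissue. Most small counts were even (73.4% to 77.4% by library), as when both reads of a pair are counted, so the counting interval was taken on fragments. With 5955 fragments against 3, LI tissue was 1770 times as high as LI monolayers (95% counting interval 605 to 8585, counting error only).

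The fitted log2 fold change of Trpv6 was -10.66 ± 0.50 (SE) in LI monolayers against LI tissue, and -7.92 ± 0.39 in SI tissue against LI tissue. In SI monolayers against SI tissue it was -1.51 ± 0.81, with a 95% interval of -3.38 to 0.36. Without SI monolayers replicate 2, the library at 10.7, that value was -2.81, and the log2 fold change of SI monolayers against LI monolayers went from 1.23 ± 1.26 to -0.07. Without LI monolayers replicate 3, the LI value was -11.63. These are bulk samples, in which fewer cells of a type and less RNA per cell cannot be told apart.

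S100g encodes calbindin-D9k, the cytosolic carrier. Its normalized count was 701, 864 and 886 in SI tissue, and 2868, 2339 and 2612 in SI monolayers. In LI tissue it was 1630, 2360 and 1280, and in LI monolayers 225, 223 and 237. Every SI monolayer library was above every SI tissue library, and every LI monolayer library was below every LI tissue library. The order of the means was SI monolayers (2607 ± 264), LI tissue (1757 ± 551), SI tissue (817 ± 101) and LI monolayers (228 ± 7.73; SD, n = 3 each), in which SI monolayers and LI tissue overlapped and no other neighbours did.

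The log2 fold change of S100g was 1.71 ± 0.19 (SE) in SI monolayers against SI tissue, a level 3.19 times as high. In LI monolayers against LI tissue it was -2.90 ± 0.21, with tissue 7.69 times as high. The region with more S100g thus changed places: LI tissue had 2.15 times the level of SI tissue, while SI monolayers had 11.4 times that of LI monolayers. The difference between the SI and LI changes was 4.60 ± 0.28 on the log2 scale, and 4.33 without LI tissue replicate 2.

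Atp2b1 encodes the plasma membrane calcium pump that moves calcium out of the cell. It had normalized counts of 8218, 9132 and 7503 in SI tissue, and of 18735, 19110 and 18370 in SI monolayers. In LI tissue it had 13100, 13591 and 10379, and in LI monolayers 24614, 25034 and 26068. The 4 groups did not overlap, and in both regions the monolayers were above the tissue. The log2 fold change was 1.21 ± 0.08 (SE) in SI and 1.08 ± 0.08 in LI, and the difference between these changes was 0.14 ± 0.12 with a 95% interval of -0.14 to 0.41.

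Vdr encodes the vitamin D receptor, a nuclear receptor. Its normalized count was 20358, 19523 and 18185 in SI tissue, and 7458, 7650 and 7708 in SI monolayers. In LI tissue it was 21545, 22861 and 20402, and in LI monolayers 2319, 2336 and 2336. The tissue groups lay near each other, with LI tissue 1.12 times as high as SI tissue on the means, and both monolayer groups were below them. The log2 fold change was -1.31 ± 0.05 (SE) in SI monolayers and -3.17 ± 0.06 in LI monolayers, each against its tissue. SI monolayers kept 3.26 times the level of LI monolayers, a log2 difference of 1.74 ± 0.05.

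Cyp24a1 encodes the mitochondrial hydroxylase that inactivates calcitriol, and its induction is a common readout of vitamin D receptor activity. It had no count in 9 of the 12 libraries. The counts were 2, 4 and 0 in the SI tissue libraries and 2 in LI monolayers replicate 1, and every library of LI tissue and of SI monolayers was at 0. A count of 0 allows up to 3 fragments, or 6 counts where both reads were counted (5.34 to 7.06 normalized counts by library), so all groups were at or near the limit of detection and no fold change is given. It did not pass the filter on low counts, as the only one of the 6 genes.

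Cyp27b1 encodes the hydroxylase that makes calcitriol, an enzyme known foremost from the kidney. It had 4, 4 and 10 counts in the SI tissue libraries, 4, 8 and 11 in SI monolayers, and 10, 12 and 5 in LI tissue. In LI monolayers it had 0, 4 and 2 counts. Every group overlapped its neighbours in the order of the means, from LI tissue (8.28 normalized counts) to LI monolayers (2.19). The 95% interval of its log2 fold change reached from -3.88 to 0.13 in LI and from -1.57 to 1.95 in SI, each monolayers against tissue, and a difference was not detectable at this depth. Leaving out 1 library at a time gave -2.95 to -1.35 in LI and -0.12 to 0.69 in SI, and the lowest LI value was without LI monolayers replicate 2.

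**Figure D1:**
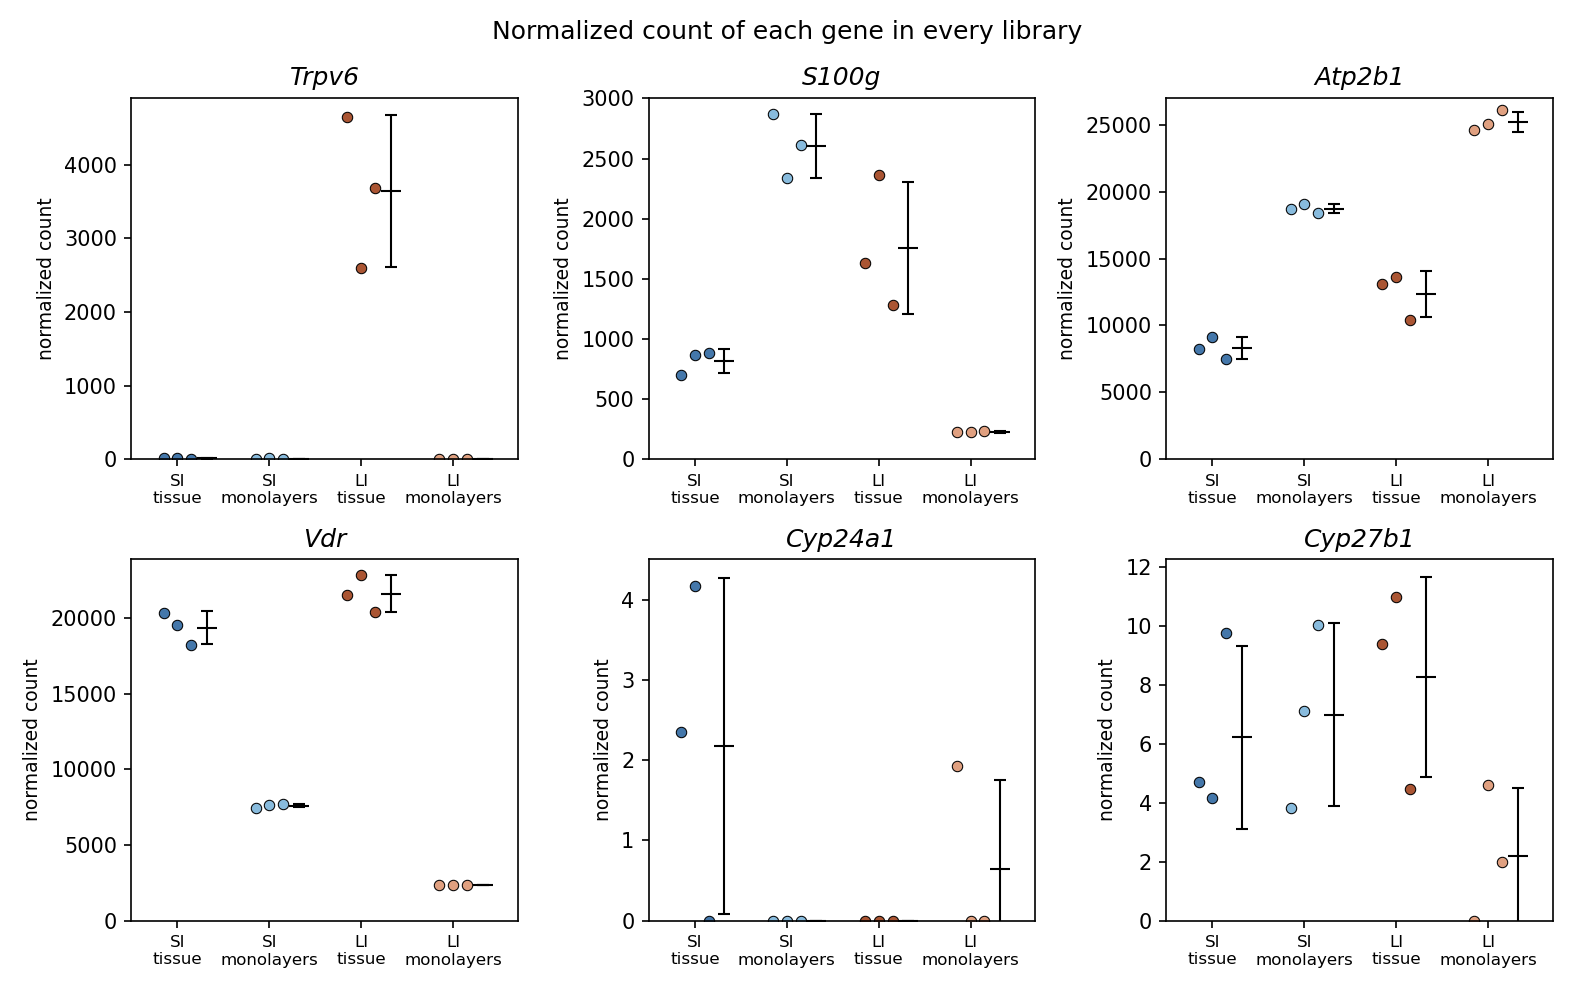
Normalized count (vertical axis, linear, from 0, a scale of its own for each gene) of the 6 genes in tissue and monolayers of both regions. Points are the 3 libraries of a group, and the dash with its bar is their mean with the SD, shown only from 0 upwards; Trpv6 was high only in LI tissue (2594 to 4653), and Cyp24a1 did not exceed 4.17 in any library.

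Of the 5 genes that passed the filter, S100g and Atp2b1 (2) were called higher and Vdr (1) lower in SI monolayers than in SI tissue, where 9.71% of the 19581 genes tested were called higher and 16.4% lower. In LI monolayers against LI tissue, Atp2b1 (1) was called higher and Trpv6, S100g and Vdr (3) lower, beside 14.5% higher and 23.5% lower of all genes. In SI tissue against LI tissue, 0 were called higher and 2 lower, beside 11.6% and 11.1%. In SI monolayers against LI monolayers, 2 were called higher and 0 lower, beside 12.4% and 8.88%. For the difference between the SI and LI changes, 3 were called higher and 0 lower, beside 11.4% and 8.51%. A call needed an adjusted p under 0.05 (edgeR quasi-likelihood, Benjamini-Hochberg) and a log2 fold change of at least 1 in size, in the fit over all genes. Nothing is read from these counts, since the 6 genes were chosen on the same contrasts. The log2 fold change of Atp2b1 in LI was under the threshold (0.97) without LI tissue replicate 3, and also without LI monolayers replicate 3, with upper quartile scaling and with a minimum of 10 counts in every library. That of S100g between the tissues was under it in size without LI tissue replicate 2 (-0.79) and without SI tissue replicate 1.

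**Figure D2:**
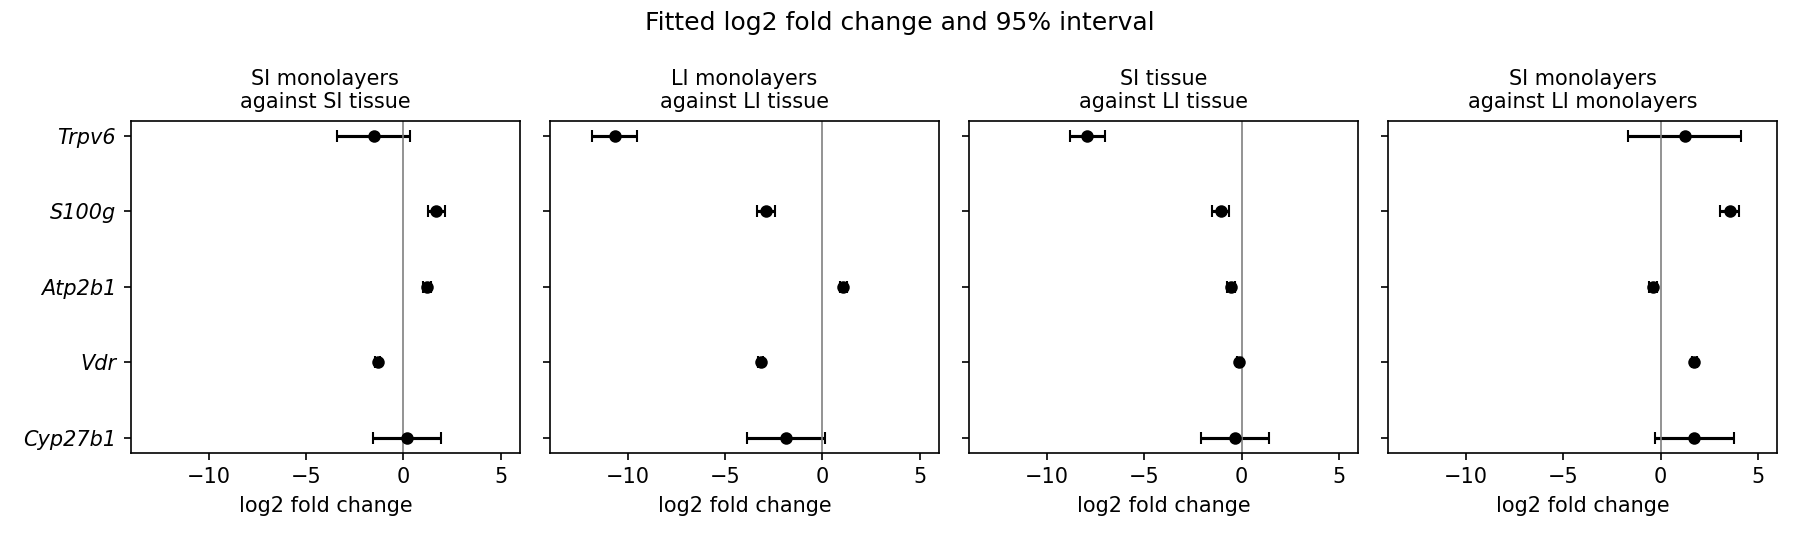
Fitted log2 fold change (horizontal axis) of the 5 genes that passed the filter on low counts, for each of 4 comparisons, with the 95% interval as a bar. S100g was at 1.71 in SI and -2.90 in LI for monolayers against tissue, while Atp2b1 was at 1.21 and 1.08.

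Levels of different genes were compared as normalized counts per kb of exon. In SI tissue Vdr led with 3426 per kb, followed by S100g (1702), Atp2b1 (544) and, much lower, Trpv6 (3.79), with no overlap between these neighbours. In LI tissue Vdr (3824 per kb) and S100g (3660) overlapped, and so did Trpv6 (926) and Atp2b1 (812) below them. Calcium entry and exit transcripts were thus at like levels per kb in LI tissue alone.

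In SI monolayers S100g led with 5431 per kb, ahead of Vdr (1346) and Atp2b1 (1231). In LI monolayers Atp2b1 led with 1658 per kb, ahead of S100g (476) and Vdr (412). With the longest transcript in place of all exons as the length, Atp2b1 came before Trpv6 in LI tissue (1733 and 1246 per kb) and before Vdr in SI monolayers (2628 and 1740), and Vdr before S100g in LI monolayers (533 and 476). The order was otherwise as given for these 4 genes.

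Over the 12 libraries, the genes whose log2 level was most like that of a member were ranked by Pearson r among 9218 genes with a mean CPM of at least 10. Those most like Trpv6 were Creb3l1 (r = 0.990), Prcp (0.990) and Dcxr (0.988). Those most like S100g were Acat2 (r = 0.990), Mvd (0.989) and Mvk (0.988). Atp2b1 was nearest to Atp11a (r = 0.995), Piezo1 (0.991) and Asap1 (0.989), and Vdr to Aldh1l1 (0.998), Nipsnap1 (0.997) and Ndufv3 (0.997).

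The 12 points share 4 groups, and r was not split into parts between and within them. Creb3l1 had a mean normalized count of 13900 in LI tissue, 1485 after culture of LI, 2554 in SI tissue and 1752 after culture of SI, a peak in LI tissue like that of Trpv6 on a far higher floor. Acat2 followed the crossed order of S100g, going from 3445 to 7782 with culture of SI and from 5212 down to 1502 with culture of LI. For Cyp27b1 the highest r was 0.840, on counts too sparse to read.

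On GRCm38, Trpv6 lies at chr6:41620624-41636405 on the minus strand, with 15 exons in its longest transcript. The next gene beyond its 3′ end, Ephb6, a receptor of the ephrin family on the other strand, ends 115 bp away. Ephb6 had normalized counts of 1837, 1616 and 1946 in LI tissue, 51.8, 60.5 and 49.9 in SI tissue, 13.4, 24.9 and 18.2 in SI monolayers, and 57.8, 42.5 and 63.2 in LI monolayers. It was thus high in the same 3 libraries as Trpv6; it was looked up after the values of Trpv6 were seen. Whether the counting used strand is not given in the sources used here, and the part that reads running past a gene end could have in either level was not tested.

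On the other side, 15768 bp away on the same strand, lies Trpv5, the related calcium channel best known from the kidney. It had 5 counts in LI tissue and none elsewhere, far below Trpv6 there. S100g lies at chrX:162961992-162964599 on the minus strand, wholly inside Ctps2 on the plus strand, but shares 0 bp of exon with it. Ctps2, looked up after the values of S100g were seen, had a mean of 1371 (tissue) and 954 (monolayers) for SI, and of 2131 and 1360 for LI. It was lower in monolayers in both regions, whereas S100g was higher in SI monolayers.

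Cyp24a1 lies at chr2:170482708-170497145 on the minus strand and shares 83 bp of exon with Pfdn4 on the plus strand, which had a mean of 743 or more in every group, so the few Cyp24a1 counts are uncertain. No gene overlapped Vdr (chr15:97854425-97910630), Atp2b1 (chr10:98914406-99026143) or Cyp27b1 (chr10:127048250-127053006). The pump and the hydroxylase share a chromosome but not a neighbourhood.

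Promoters of 5 of the 6 genes were matched in the RefSeq table (GRCm38.p6), with 6 entries since Atp2b1 has more than 1, and Cyp24a1 had no entry. They were searched on both strands for the vitamin D response element of the DR3 type, a direct repeat of a 6 base half-site with a spacer of 3 bases. None of the 6 entries held it exactly or with 1 mismatch. Of all 32851 promoters, 0.0396% held it exactly and 1.73% with at most 1 mismatch. A search of this window says nothing of elements farther away.

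A single form of the half-site, AGGTCA, was searched after the values were seen. It occurred 2 times each in the promoters of Trpv6 and S100g on either strand and in none of the other 4 entries. Of all promoters, 16.3% held it. The DR3 search also allowed G as the first base and T as the third. Such other forms were present in the Vdr entry (AGTTCA) and the Cyp27b1 entry (GGGTCA), each as its reverse complement. These other forms were not counted over all promoters. The Trpv6 and S100g promoters are shown because they alone among these entries held the form AGGTCA. Capitals mark AGGTCA or its reverse complement TGACCT, and both are written 5′ to 3′ on the minus strand of GRCm38.p6, Trpv6 at chr6:41636356-41636655 and S100g at chrX:162964550-162964849.
Trpv6: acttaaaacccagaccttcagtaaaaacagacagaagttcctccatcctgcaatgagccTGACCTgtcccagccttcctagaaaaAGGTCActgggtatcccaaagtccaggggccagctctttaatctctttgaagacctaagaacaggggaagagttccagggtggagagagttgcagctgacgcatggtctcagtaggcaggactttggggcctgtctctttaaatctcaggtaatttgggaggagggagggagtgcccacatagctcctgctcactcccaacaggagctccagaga
S100g: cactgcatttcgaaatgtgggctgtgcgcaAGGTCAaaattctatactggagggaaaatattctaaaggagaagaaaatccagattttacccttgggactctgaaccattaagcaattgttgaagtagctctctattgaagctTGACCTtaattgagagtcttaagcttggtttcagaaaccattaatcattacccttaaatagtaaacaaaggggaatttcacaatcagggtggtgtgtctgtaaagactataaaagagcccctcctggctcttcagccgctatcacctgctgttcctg
A match is a description of letters and not of binding.

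The other genes of the pathway were taken from 4 lists of 65 genes, of which 62 passed the filter on low counts. In SI monolayers against SI tissue 9 of 62 were called higher (14.5%, beside 9.71% of all genes) and 18 lower (29.0%, beside 16.4%), with a median log2 fold change of -0.24 over the lists and -0.05 over all genes. In LI monolayers against LI tissue 12 were called higher and 13 lower (19.4% and 21.0%, beside 14.5% and 23.5%), with medians of -0.06 and -0.05. In SI tissue against LI tissue 9 were higher and 10 lower (14.5% and 16.1%, beside 11.6% and 11.1%), and in SI monolayers against LI monolayers 10 and 7 (16.1% and 11.3%, beside 12.4% and 8.88%). The SI and LI changes differed in 19 of the 62 genes, 12 with the more positive change in SI (19.4%, beside 11.4% of all genes) and 7 in LI (11.3%, beside 8.51%). The comparisons share groups of libraries and are not independent, and Lrp2 and Slc34a3 are counted although each passed the filter through 1 group only. Genes named below are those with the largest changes, whose size may be overstated. The lists were written with earlier results of these data known, so a p-value given for a named gene is not independent support. With upper quartile scaling the median over all genes for LI monolayers against LI tissue was -0.17 in place of -0.05.

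Among the 22 tested genes of the calcium absorption list, 4 rose and 6 fell in SI monolayers (18.2% and 27.3%, beside 9.71% and 16.4% of all genes), and likewise 4 and 6 in LI monolayers (beside 14.5% and 23.5%). Anxa2, an annexin that helps to hold TRPV channels at the membrane, rose with culture of SI, where its mean went from 44149 to 187819 (log2 fold change 2.12 ± 0.07, SE), and of LI, where it went from 47990 to 261427 (2.49 ± 0.07). The endoplasmic reticulum calcium pump Atp2a3 fell in SI from 24745 to 6322 (log2 fold change -1.93 ± 0.06) and in LI from 76144 to 9043 (-3.03 ± 0.07). The plasma membrane pump Atp2b2 fell in SI (-2.37 ± 0.37). The scaffold protein gene Pdzd3 fell in LI from 2701 to 203 (-3.69 ± 0.15) and in SI from 4520 to 1214 (-1.86 ± 0.13). The Golgi calcium pump Atp2c1 rose in LI by 2.09 ± 0.05 and was not called in SI (0.90).

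Paracellular calcium passes through pores made by claudins, and Cldn2 is such a pore. Its normalized count was 7776, 7181 and 8472 in SI tissue and 25442, 24756 and 25108 in SI monolayers. It was 12675, 12684 and 13451 in LI tissue and 408, 393 and 370 in LI monolayers. As for S100g, all 3 SI monolayer libraries were above SI tissue, and all 3 LI monolayer libraries below LI tissue. The log2 fold changes were 1.72 ± 0.06 (SE) and -5.01 ± 0.08, and their difference was 6.72 ± 0.10 (edgeR quasi-likelihood test, Benjamini-Hochberg adjusted p = 3.16e-16).

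Between the regions, 2 sodium-calcium exchanger genes had the largest differences towards LI in this list. Slc8a1 of the plasma membrane had 1413 ± 517 normalized counts in LI tissue and 92.2 ± 35.9 in SI tissue (SD, n = 3), a log2 difference of -3.91 ± 0.31 (SE) for SI against LI. Slc8b1 of the mitochondria had 3887 ± 500 and 288 ± 26.7, a difference of -3.72 ± 0.10. Both also differed between monolayers, by -3.85 ± 0.31 for Slc8a1 and -1.84 ± 0.09 for Slc8b1. The claudin gene Cldn15 was higher in SI, by 1.89 ± 0.08 in tissue and 4.05 ± 0.09 in monolayers, and the calcium pump Atp2b2 was higher in SI tissue than in LI tissue by 2.54 ± 0.38 (3.25 without LI tissue replicate 1).

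The vitamin D machinery list holds the receptor partners, coregulators, hydroxylases and uptake receptors, and 16 of its 18 genes were tested. In SI monolayers 1 rose and 3 fell (6.25% and 18.8%, beside 9.71% and 16.4% of all genes), and in LI monolayers 3 rose and 3 fell (18.8% each, beside 14.5% and 23.5%). Cyp27a1, a mitochondrial hydroxylase of sterols and of vitamin D, fell in SI from 1206 to 254 (-2.21 ± 0.19) and, with culture of LI, from 670 to 84.4 (-2.93 ± 0.21). In LI monolayers Ncoa2, a coactivator of nuclear receptors, rose by 1.33 ± 0.05, and Fdxr, the reductase that feeds electrons to mitochondrial hydroxylases, fell (-1.31 ± 0.09).

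Cubn and Lrp2 encode cubilin and megalin, endocytic receptors that take up the vitamin D carrier protein in the kidney. Cubn was 3084, 1722 and 1024 in SI tissue and 558, 546 and 520 in SI monolayers. It was 47.9, 44.9 and 9.82 in LI tissue and 1075, 880 and 939 in LI monolayers. All 3 SI monolayer libraries were below SI tissue, and all 3 LI monolayer libraries above LI tissue. The gene thus fell in SI (log2 fold change -1.81 ± 0.41, SE) and rose in LI (4.87 ± 0.54), with a difference of -6.68 ± 0.68 (edgeR quasi-likelihood test, Benjamini-Hochberg adjusted p = 4.4e-05).

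Lrp2 was low throughout, with 12.9, 4.17 and 5.87 in SI tissue, 18.8, 3.66 and 8.93 for LI tissue, and 3.85, 4.59 and 3.95 after culture of LI. Only in SI monolayers was it clearly above these, at 99.8, 73.0 and 58.4. The gene passed the filter on low counts only through SI monolayers, so a difference was bound to appear and no p-value is given. Its log2 fold change was 3.37 ± 0.54 in SI, and the difference between the SI and LI changes was 4.64 ± 0.83, or 3.94 without LI tissue replicate 1.

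The list of vitamin D responsive genes held 10 others, all tested, each also controlled by much else. In SI monolayers 3 rose and 4 fell (30.0% and 40.0%, beside 9.71% and 16.4% of all genes), and in LI monolayers 4 rose and 2 fell (beside 14.5% and 23.5%). Igfbp3, a binding protein of insulin-like growth factors, rose in both (2.35 ± 0.23 in SI and 2.63 ± 0.22 in LI), and Fbp1 of gluconeogenesis fell in both (-2.41 ± 0.17 and -2.21 ± 0.24). Abcc3, an efflux transporter, rose in SI by 1.39 ± 0.06 and was lower in SI tissue than in LI tissue (-1.48 ± 0.06). Slc30a10, a manganese transporter, fell in LI from 881, 1780 and 408 to 45.3, 34.4 and 41.5, a log2 fold change of -4.60, or -3.93 without LI tissue replicate 2, and fell in SI as well (-1.72 ± 0.44).

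Spp1 (osteopontin) and Thbd (thrombomodulin) were low but moved in opposite directions by region. Spp1 was 83.5, 105 and 45.0 in SI tissue and 9.60, 10.7 and 16.4 in SI monolayers, against 29.1, 3.66 and 8.03 in LI tissue and 51.0, 37.9 and 62.3 in LI monolayers. All 3 libraries of monolayers were below tissue in SI and above it in LI. Its change was -2.62 ± 0.55 (SE) in SI and 1.94 ± 0.55 in LI, and the difference between the SI and LI changes was -4.56 ± 0.78 (edgeR quasi-likelihood test, Benjamini-Hochberg adjusted p = 0.000171), or -5.73 without LI tissue replicate 1. Thbd rose in LI by 2.58 ± 0.29, from 49.5 to 288, and fell in SI from 14.2 to 4.87 (-1.47 ± 0.45). It differed between SI and LI monolayers by -5.81 ± 0.38. At 3.84, 7.12 and 3.65, the SI monolayer libraries were near the limit of detection, so the sizes of these last 2 differences are uncertain.

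Cyp3a11, a cytochrome of drug and steroid oxidation, marked SI in either state. It had 6464 ± 1829 normalized counts in SI tissue and 41.5 ± 32.8 in LI tissue (SD, n = 3), a log2 difference of 7.34 ± 0.45 (SE), or 8.12 without LI tissue replicate 1. In monolayers it had 9180 ± 431 and 73.1 ± 25.2, a difference of 7.02 ± 0.43. Fbp1 was likewise higher in SI, by 3.88 ± 0.19 in tissue and 3.68 ± 0.23 in monolayers.

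Phosphate and magnesium are absorbed alongside calcium, and all 14 genes of that list were tested. In SI monolayers 1 rose and 5 fell (7.14% and 35.7%, beside 9.71% and 16.4% of all genes), and in LI monolayers 1 rose and 2 fell (7.14% and 14.3%, beside 14.5% and 23.5%). The phosphate cotransporter Slc34a2 fell in LI from 1504 to 105 (-3.79 ± 0.35) and in SI from 2460 to 721 (-1.73 ± 0.29). From low levels, Slc34a1 fell in SI from 25.2 to 4.95 (-2.30 ± 0.53) and in LI from 57.9 to 4.67 (-3.53 ± 0.52). Both of its monolayer levels were near the limit of detection, so the sizes of its falls are uncertain. The phosphate transporter Slc20a2 rose in LI by 1.03 ± 0.07, close to the threshold of a call, and was not called with DESeq2, with upper quartile scaling (0.91), with a minimum of 10 counts in every library, or without any of 7 libraries in turn.

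The magnesium channel Trpm6 had a regional order like that of Trpv6 in tissue. It had 8375, 7207 and 8509 normalized counts in LI tissue and 142, 158 and 110 in SI tissue, a log2 difference of -5.84 ± 0.11 (SE) for SI against LI. Unlike Trpv6, it was still at 4030, 3878 and 3992 in LI monolayers, and it rose in SI monolayers to 458, 499 and 459 (1.83 ± 0.11). The phosphate transporter Slc20a1 was also higher in LI, with log2 differences for SI against LI of -1.84 ± 0.15 in tissue and -1.30 ± 0.14 in monolayers. Slc34a3 was seen mainly in SI tissue (98.8, 39.6 and 27.4) and passed the filter only through it, so a difference was bound to appear; its log2 fold change in SI was -4.08 ± 0.81, or -3.37 without SI tissue replicate 1. The magnesium transporter Slc41a2 was higher in SI by 1.51 ± 0.11 in tissue and 1.12 ± 0.11 in monolayers.

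**Figure D3:**
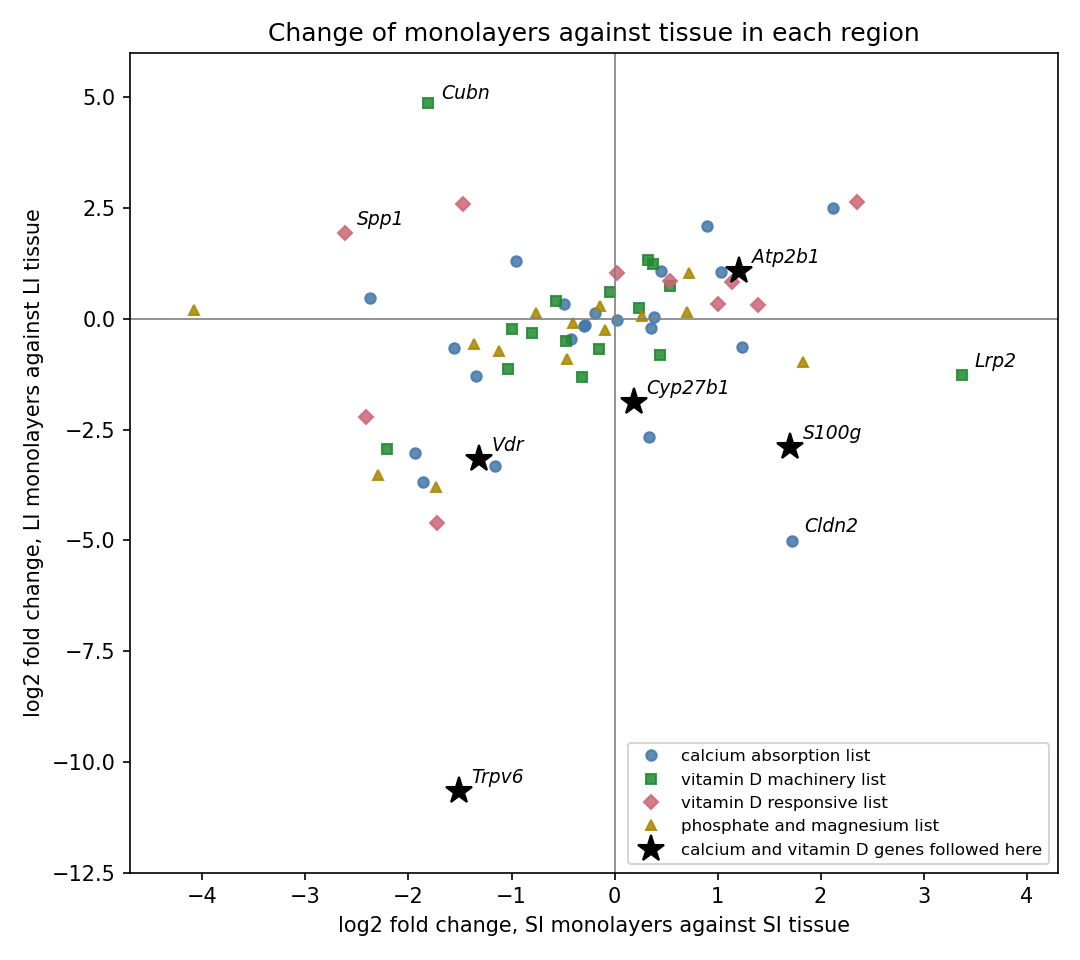
Log2 fold change of SI monolayers against SI tissue (horizontal axis) and of LI monolayers against LI tissue (vertical axis) for the 62 tested genes of the 4 lists (small symbols) and the 5 tested members (stars). S100g (1.71 and -2.90) lies in the same corner of the plot as Cldn2 (1.72 and -5.01), and Cubn (-1.81 and 4.87) in the opposite one.

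Cell type markers moved with the same contrasts. Of all genes tested, 9.71% were called higher and 16.4% lower in SI monolayers, and 14.5% and 23.5% in LI monolayers. All 8 colonocyte markers fell in LI monolayers, the comparison in which Trpv6, S100g and Vdr were lower, and their summed normalized count was 268634, 392767 and 238135 in LI tissue against 46050, 47089 and 48721 in LI monolayers. It was 65610, 81272 and 64958 in SI tissue and 13521, 12363 and 11636 in SI monolayers, where 3 of the 8 fell and 5 were not called, with Car4 going from 47429 to 471 and Slc26a2 from 7399 to 7058. The most abundant of these was Car4 in 2 LI tissue libraries and Car1 in the other, and Aqp8 in LI monolayers, while the sodium channel gene Scnn1g was at 0 in 2 of the 3 LI monolayer libraries.

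Of 12 enterocyte markers, 9 fell (75.0%, beside 16.4% of all genes) and 0 rose in SI monolayers, in which S100g was higher and Vdr lower. Their sum was 1695914, 1552776 and 1069653 in SI tissue and 345097, 334961 and 329203 in SI monolayers, led by Anpep in tissue and Apoa1 in monolayers. In LI it was 53536, 51614 and 38237 in tissue and 14232, 20051 and 18091 in monolayers, but only 3 of the 12 fell there, 1 rose and 8 were not called, with a median log2 fold change of 0.55. Of the 8 general epithelial markers, 4 rose and 0 fell in SI and 3 rose and 1 fell in LI, with Krt8 the most abundant in every library. None of these markers was at 0 in any library, and their sums were 920017 to 1029609 (tissue) and 1822416 to 1866314 (monolayers) for SI, and 1592610 to 1620381 and 2358775 to 2457604 for LI.

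Markers of non-epithelial cells were also counted, and whether these transcripts came from such cells was not tested. Of 12 immune markers 9 fell in SI and 10 in LI (75.0% and 83.3%, beside 16.4% and 23.5% of all genes). In each region 1 rose (8.33%, beside 9.71% in SI and 14.5% in LI). Their sum was 12591 to 13459 (tissue) and 3244 to 3667 (monolayers) for SI, and 2595 to 2886 and 541 to 661 for LI. Ptprc or Lyz2 led in tissue, Lyz2 in SI monolayers and Cd68 in LI monolayers.

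Mesenchymal markers summed to 1826 to 3617 (tissue) and 1644 to 2342 (monolayers) for SI, and to 3791 to 6555 and 4452 to 5965 for LI, mostly with Vim on top. Of these 12 markers 3 fell and 0 rose in SI, and 5 fell and 3 rose in LI, and Lum was at 0 in 2 SI tissue libraries. Of the 6 endothelial markers 5 were tested, of which 4 fell and 0 rose in SI and 1 fell and 2 rose in LI. They summed to 293 to 384 (tissue) and 65.9 to 98.9 (monolayers) for SI, and to 397 to 472 and 218 to 280 for LI, led by Pecam1 or Vwf, and Cdh5 and Emcn were at 0 in all SI monolayer libraries. None of the 8 proliferation markers was called in SI and 1 rose in LI (12.5%, beside 14.5% of all genes). Their sums were 55919 to 58757 (tissue) and 74905 to 76703 (monolayers) for SI, and 45674 to 50463 and 66586 to 71484 for LI. Pcna, Top2a or Mki67 led, and none was at 0.

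Of the 7 region markers 0 were called in SI monolayers. In LI monolayers 4 fell (57.1%, beside 23.5% of all genes) and 1 rose (14.3%, beside 14.5%). Their sums were 84763 to 100501 (tissue) and 23700 to 24677 (monolayers) for LI, and 55168 to 56067 and 39384 to 41394 for SI. Cdx1 led in LI tissue and Cdx2 in the other groups. Mitochondrially encoded genes took 4.56% to 9.16% of counts in SI tissue and 2.25% to 2.59% in LI tissue, but 0.472% to 0.559% and 0.704% to 0.750% in the monolayers of SI and of LI. The part of these cell types and of the mitochondrial share in the levels of the 6 genes was not tested.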

How the data were processed

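RNA was read in 12 libraries, 3 per group, as paired ends. Per the submitters' processing notes, reads were aligned to GRCm38 with STAR 2.7.9a. The deposited count per gene came from featureCounts 2.0.2. The authors' deposited normalized counts (unit signal) are these counts scaled by DESeq2, given as version 3.13. Genes were named from a reference table (55141 of 55487), and positions and exon lengths came from GENCODE vM21 on the same build, while the counts used vM25. No column was left unused (0).

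Counts were fitted with edgeR 4.0.16 (filterByExpr, TMM, robust quasi-likelihood, 1 model of 4 group means, 19581 genes tested) in R 4.3.3, and tested on simulated data. Intervals of fold changes rest on the model's SE. DESeq2 1.42.0, other scaling and filters, fewer samples and left-out libraries were alternatives. The genes named are the 6 members, per list and comparison the 2 called genes with the largest change in each direction (over the 4 lists together for the difference between regions), the 3 most alike by r, and the leading or undetected markers. Neighbouring genes and those whose counts stood out were named after their values were seen. Members and lists were chosen with earlier results of these data known. Replicate libraries differed by more than counting noise.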

Additional observations from a re-analysis of the deposited data

Results flagged for a closer look

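S100g, Cldn2, Lrp2, Spp1 and Cubn were picked out because the change of monolayers against tissue differed between SI and LI. They are not the only such genes. As a description, the difference was 9.15 (log2) for Trpv6, with few counts in the monolayers, and 1.85 for Vdr. For S100g every SI monolayer library was above, and every LI monolayer library below, those of its tissue, with a difference between the changes of 4.60 (log2), given as a description, since the gene was chosen on these contrasts. For Cldn2 the difference was 6.72 (edgeR interaction test). For Lrp2 it was 4.64, but the gene passed the filter on low counts only through SI monolayers, so a difference was bound to appear. For Spp1 it was -4.56 (-5.733 to -4.111 leaving out 1 library at a time), and for Cubn -6.68, both with the more positive change in LI. The last 4 are the largest differences in the pathway lists, and their size may be overstated. The causes were not tested.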

How the results depend on the processing

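With at least 10 counts required in every library, 3140 genes were called in SI and 4797 in LI (monolayers against tissue), 2606 between tissues and 2442 between monolayers. With no minimum fold change, 11674, 13445, 10558 and 10145 genes were called, and 9069 for the difference between the SI and LI changes. The same rule called 50, 49, 45 and 39 pathway list genes, and 40 for that difference. The log2 fold change of Vdr was -1.381 in SI (at least 10 counts), -3.285 (upper quartile scaling) and -3.245 (at least 10 counts) in LI, and 1.704 (DESeq2), 1.707 (no filter) and 1.703 (at least 10 counts) between monolayers. Its difference between changes was 1.934 (upper quartile scaling). Leaving out 1 library at a time, Trpv6 ranged from -2.809 to -1.06 in SI, -11.63 to -10.13 in LI, -0.07211 to 2.159 between monolayers and 7.924 to 10.16 for the difference between changes. Vdr ranged from -3.242 to -3.124 in LI, 1.736 to 1.781 between monolayers and 1.813 to 1.978 for the difference. Cyp27b1 ranged from -2.952 to -1.351 in LI, 1.151 to 2.752 between monolayers and 1.575 to 3.177 for the difference. Atp2b1 ranged from -0.3998 to -0.3448 between monolayers and 0.06334 to 0.2716 for the difference, and S100g from 4.331 to 4.781 for the difference. With the replicate number as a replicate block, 5017, 7367, 4383 and 4083 genes were called, and 3807 for the difference, but same-numbered libraries did not correlate (r from -0.0516 to 0.0563). The cause of these shifts was not tested.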
